A study of Homo sapiens with 6 samples.

Results

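The subunit genes of respiratory complex I were followed in Cal27 cells in which DAZAP1, an RNA-binding protein, was knocked down by lentivirus. Cal27 is an established oral squamous cell carcinoma line. The genes were chosen by name, as the rows whose symbol is NDUFA, NDUFAB, NDUFB, NDUFC, NDUFS or NDUFV followed by a number. NDUFA4 was left out because it is known as a subunit of cytochrome c oxidase. The rule gave 37 genes of the 30947 measured, and all 37 passed the filter on low counts that left 15374 genes for testing. RNA was sequenced from 3 Cal27 samples with DAZAP1 knockdown and 3 Cal27 control samples, all grown in high-glucose medium with serum. The labels describe the control once as an empty vector and once as a control sequence. They name no more than 1 knockdown construct. They do not say whether the samples of a group came from separate infections or cultures, so the p-values rest on the spread among these libraries alone, which may be technical.

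Complex I is the first enzyme of the mitochondrial respiratory chain. It takes electrons from NADH through a flavin and a chain of iron-sulfur clusters to ubiquinone, and uses the energy to pump protons across the inner membrane. Its peripheral arm reaches into the matrix and holds the redox cofactors, and its membrane arm holds the pumps. The hydrophobic pump subunits are encoded by the mitochondrial genome, while the core subunits of the peripheral arm and all accessory subunits are encoded in the nucleus. Accessory subunits surround the core and are known for roles in assembly and stability. In bulk RNA, fewer cells of a kind and less RNA per cell cannot be told apart.

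The target was lower in the libraries labelled as knockdown. DAZAP1 stood at 73.6, 77.8 and 67.5 CPM (counts scaled to library totals and edgeR's TMM factors) in knockdown cells, against 262, 278 and 257 CPM in control cells. Its log2 fold change was -1.86 ± 0.04 (SE; edgeR quasi-likelihood test with Benjamini-Hochberg adjustment over all genes tested, adjusted p = 1.67e-39). Library totals were 16333542 to 17815862 counts in knockdown cells and 18547236 to 18955230 counts in control cells. Of 7 epithelial markers, most of them squamous, 5 rose, 1 (EPCAM) fell and 1 (TP63) did not pass. Of all genes tested, 26.9% were called higher and 27.4% lower. The 7 summed to 3815 to 3866 CPM in knockdown cells and 2826 to 2961 CPM in control cells. KRT5 was the largest part of that, at a mean of 2147 CPM in knockdown cells and 1506 CPM in control cells. Of 4 endothelial markers 3 were measured, and they summed to 46.4 to 51.8 CPM in knockdown cells and 13.9 to 16.7 CPM in control cells. CDH5 made up nearly all of that, while PECAM1 averaged 0.393 CPM in knockdown cells and 0.0713 CPM in control cells. Of 6 fibroblast markers 4 were measured, summing to 18.7 to 19.5 CPM in knockdown cells and 10.2 to 13.5 CPM in control cells. The 5 leukocyte markers summed to 2.18 to 2.94 CPM in knockdown cells and 0.695 to 1.59 CPM in control cells, with PTPRC at 0.0202 CPM in knockdown cells and 0.0365 CPM in control cells. The 3 neuronal markers summed to 0.526 to 1.89 CPM in knockdown cells and 1.18 to 2.52 CPM in control cells. The part of these differences in the values below was not tested.

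Most complex I subunit mRNAs were modestly lower in DAZAP1 knockdown cells. At an adjusted p under 0.05, 26 of the 37 fell, none rose and 11 did not pass. Of all genes tested, 27.4% were called lower and 26.9% higher. No member was higher at an unadjusted p under 0.05 with edgeR, and DESeq2 and limma voom also called 0 members higher. The median log2 fold change over the 37 was -0.25, beside 0.00238 over all genes tested, whose quartiles were -0.23 and 0.29. Log2 fold changes were below 0 for 33 members and above 0 for 4. In 26 members every knockdown library lay below every control library, as did 29.4% of all genes tested.

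The decreases were small. Members that fell were lower by 7.68% (NDUFA5) to 36.4% (NDUFS6), with a median of 20.5%. The decrease was under 10% for 3 of them, 10% to 20% for 10, 20% to 30% for 9, and 30% or more for 4, which were NDUFS6, NDUFB3, NDUFC1 and NDUFB2. A fall of more than 1.5-fold was seen for 2 of the 37 members, NDUFS6 and NDUFB3, a share close to the 5.52% of all genes tested. These 2 were picked out after their values were seen. The calls of 20 of the 26 held in every alternative fit, and those of NDUFA1, NDUFA5, NDUFA8, NDUFB9, NDUFS4 and NDUFS6 were lost in at least 1.

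**Figure D1:**
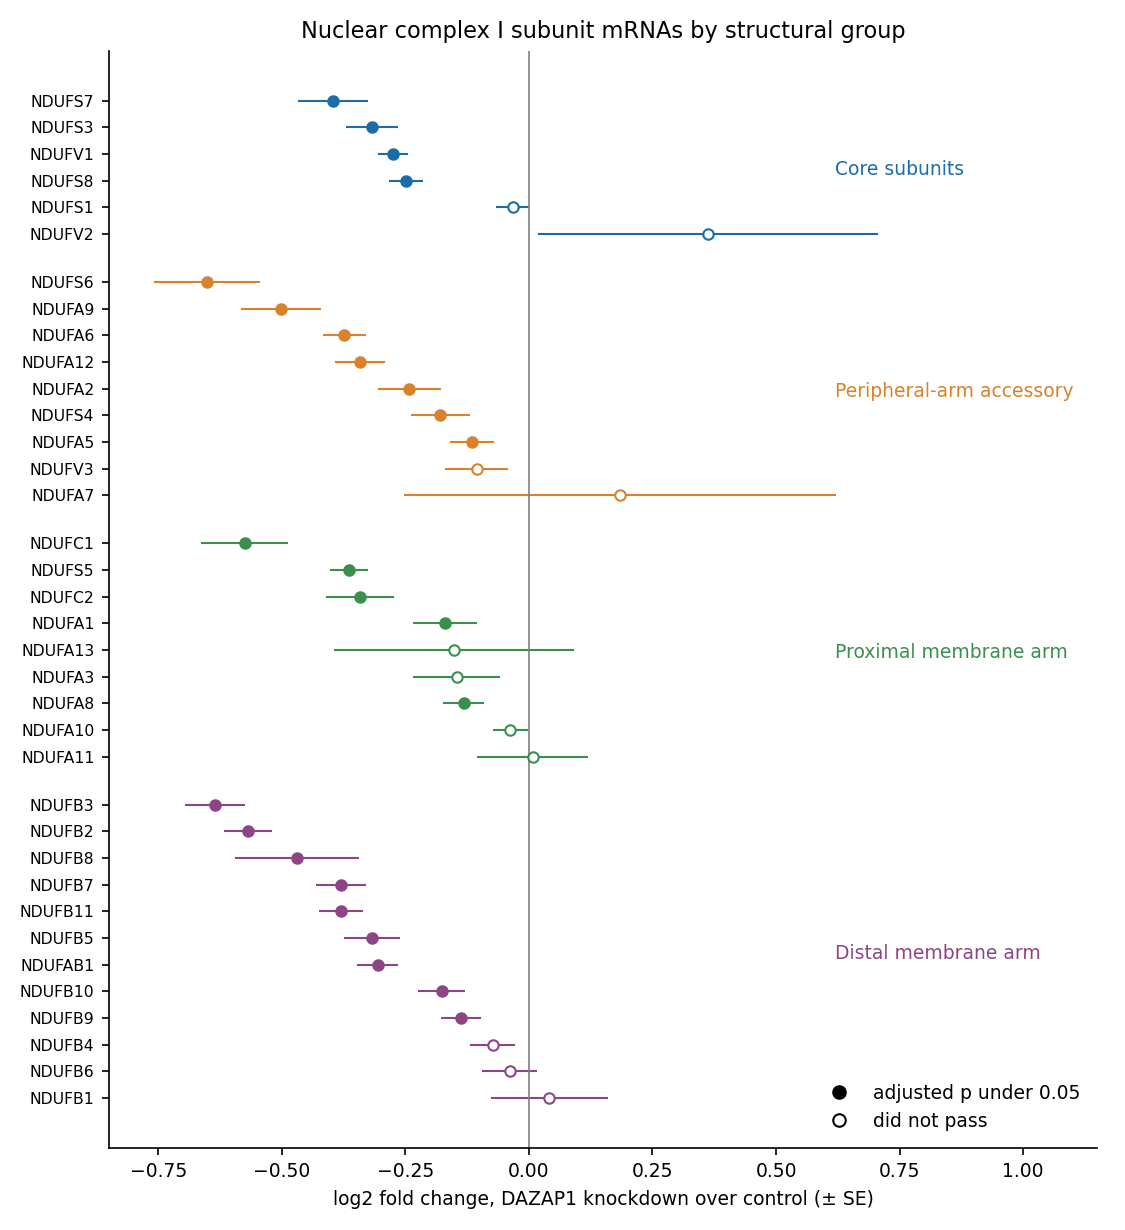
Log2 fold change of the complex I subunit mRNAs, DAZAP1 knockdown over control (horizontal axis), with bars of 1 SE from 3 libraries a group and the genes ordered within 4 structural groups. Filled points are members with an adjusted p under 0.05, all to the left of 0, and open points the 11 that did not pass.

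The core subunits of the peripheral arm carry the flavin, the iron-sulfur clusters and the quinone site, and 5 of the 7 fell (median log2 fold change -0.28). NDUFV1, which binds NADH and the flavin, stood at 162, 159 and 165 CPM in knockdown cells, against 194, 202 and 192 CPM in control cells. The 3 libraries of each group lay close together and the groups did not overlap (log2 fold change -0.28 ± 0.03 SE, edgeR adjusted p = 3.18e-12). NDUFS8, an iron-sulfur subunit of the cluster chain, had 123, 123 and 116 CPM in knockdown cells and 145, 144 and 140 CPM in control cells. It was lower by 15.8% (edgeR adjusted p = 4.83e-09), and each knockdown library lay below each control library.

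NDUFS7, which holds the last cluster before ubiquinone, and NDUFS3, a core subunit with no cofactor, fell as well, with log2 fold changes of -0.40 and -0.32. The core members that did not pass were NDUFS1 and NDUFV2. NDUFS1, which carries several iron-sulfur clusters, was among the well-counted genes, at 163, 154 and 148 CPM in knockdown cells and 155, 160 and 161 CPM in control cells. Its groups overlapped, and the 95% interval of its log2 fold change ran from -0.10 to 0.03, which lies above the log2 fold changes of NDUFV1, NDUFS8, NDUFS7 and NDUFS3. NDUFV2, the partner of NDUFV1 in the NADH-binding module, had only 1.28, 1.11 and 1.58 CPM in knockdown cells and 0.930, 1.23 and 0.911 CPM in control cells. With a mean of 20.8 counts a library its interval, -0.32 to 1.05, covered both directions.

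Among the 9 accessory subunits of the peripheral arm, 7 fell (median log2 fold change -0.24). NDUFA6, which anchors the acyl carrier protein NDUFAB1 to this arm, stood at 76.8, 75.1 and 70.5 CPM in knockdown cells, against 94.3, 102 and 92.5 CPM in control cells. The groups did not overlap (log2 fold change -0.37 ± 0.04 SE, edgeR adjusted p = 1.24e-11). NDUFA12, which is added late to the arm, had 51.5, 48.2 and 51.5 CPM in knockdown cells and 67.9, 63.3 and 60.5 CPM in control cells (lower by 21.1%, edgeR adjusted p = 2.84e-08). NDUFA9, a dehydrogenase-like subunit near the junction of the arms, had 18.04, 17.3 and 19.3 CPM in knockdown cells and 27.8, 24.3 and 25.3 CPM in control cells. Its log2 fold change of -0.50 ± 0.08 SE was farther from 0 than those of NDUFA6 and NDUFA12.

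NDUFS6, a zinc-binding subunit of this arm, had the log2 fold change farthest below 0 of all members, -0.65 ± 0.11 SE. It stood at 123, 112 and 133 CPM in knockdown cells, against 192, 212 and 174 CPM in control cells. The groups did not overlap, with SDs of 10.4 CPM in knockdown cells and 19.3 CPM in control cells, and its edgeR adjusted p was 0.00726. The 95% interval ran from -0.94 to -0.36. NDUFS6 did not pass with the replicate number as a block (adjusted p = 0.0621).

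NDUFA2, NDUFS4 and NDUFA5 fell by 15.5%, 11.7% and 7.68%. NDUFV3 had 31.3, 30.1 and 32.6 CPM in knockdown cells and 33.6, 33.5 and 33.9 CPM in control cells, with no overlap but an edgeR adjusted p of 0.159. NDUFA7 averaged 0.755 CPM in knockdown cells and 0.662 CPM in control cells, too few counts to show a difference of this size.

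The part of the membrane arm next to the junction had 5 of its 9 accessory subunits lower and the median nearest to 0 of the 4 groups (-0.15). NDUFS5, on the intermembrane space side, had 107, 101 and 118 CPM in knockdown cells and 138, 144 and 138 CPM in control cells. The groups were well apart (log2 fold change -0.36 ± 0.04 SE, edgeR adjusted p = 4.38e-12). NDUFC1, a small membrane subunit, had 14.0, 15.6 and 14.7 CPM in knockdown cells and 21.7, 22.0 and 22.4 CPM in control cells, lower by 32.9% (edgeR adjusted p = 3.75e-08). NDUFC2, which packs beside NDUFC1 in the membrane, had 27.0, 28.97 and 30.4 CPM in knockdown cells and 41.1, 35.2 and 33.2 CPM in control cells. Its groups did not overlap, and it was lower by 21.1% (edgeR adjusted p = 1.96e-05).

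NDUFA8, another intermembrane space subunit, and NDUFA1, a short single-span membrane subunit, fell by 8.77% and 11.1%, the second with overlapping groups. NDUFA10, a subunit related to nucleoside kinases, was as well counted as NDUFS5, with 124, 120 and 120 CPM in knockdown cells and 128, 123 and 124 CPM in control cells. Its groups overlapped, and the 95% interval of its log2 fold change was -0.11 to 0.03. NDUFA3, NDUFA11 and NDUFA13, all membrane subunits, did not pass either, with log2 fold changes of -0.15, 0.01 and -0.15. NDUFA13, also known as GRIM19, had a mean of only 41.0 counts a library.

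The far part of the membrane arm had 9 of 12 subunits lower and the median farthest below 0 (-0.31). NDUFB2, a small membrane subunit, stood at 54.2, 52.0 and 56.9 CPM in knockdown cells, against 82.1, 83.3 and 76.3 CPM in control cells. It had the smallest adjusted p of the 37 (log2 fold change -0.57 ± 0.05 SE, edgeR adjusted p = 3.35e-17). NDUFB3, a single-span neighbour, had 30.5, 33.2 and 32.1 CPM in knockdown cells and 52.6, 50.9 and 45.3 CPM in control cells, lower by 35.6% (edgeR adjusted p = 5.43e-15). NDUFB11, encoded on the X chromosome, had 68.7, 65.9 and 72.9 CPM in knockdown cells and 88.3, 94.0 and 87.5 CPM in control cells (lower by 23.1%, edgeR adjusted p = 1.67e-11). None of the 3 had overlapping groups.

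NDUFB8 and NDUFB7 fell with log2 fold changes of -0.47 and -0.38, and NDUFB5 and NDUFAB1, the mitochondrial acyl carrier protein, with -0.32 and -0.31. NDUFB10 and NDUFB9 fell less, by 11.5% and 9.08%. The 3 that did not pass were NDUFB4, NDUFB6 and NDUFB1, with log2 fold changes of -0.07, -0.04 and 0.04. NDUFB4 and NDUFB6 were well counted, and their 95% intervals ran from -0.16 to 0.02 and from -0.15 to 0.07. Whether the 4 structural groups differ from each other was not tested.

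The members that did not pass differed in how well they were counted. Of the 5 members with a mean under 200 counts a library, 4 did not pass, and NDUFB8 fell. Of the 32 with more counts, 25 fell (78.1%, beside 38.6% called lower among all genes tested with as many counts), and 31 had a log2 fold change below 0 (median -0.28). The remaining 7 were NDUFS1, NDUFA10, NDUFB4, NDUFB6, NDUFV3, NDUFA3 and NDUFA11. The bound of 200 counts was set after the values were seen.

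All 3 knockdown libraries showed the shift. Relative to the mean of the control libraries, the median member was at -0.22, -0.31 and -0.25 on the log2 scale in knockdown cells, and at 0.03, 0.000077 and -0.03 in control cells. Of the 32 members with 200 counts or more, 19 had their lowest knockdown value in replicate 2, 6 in replicate 1 and 7 in replicate 3. Summed over the 37 members, complex I subunit mRNA was 2125 ± 53.3 CPM in knockdown cells and 2560 ± 62.5 CPM in control cells (SD, n = 3 each), a difference of -17.0%. With library totals alone as the scale the sums were 2147 CPM in knockdown cells and 2525 CPM in control cells, a difference of -14.9%.

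**Figure D2:**
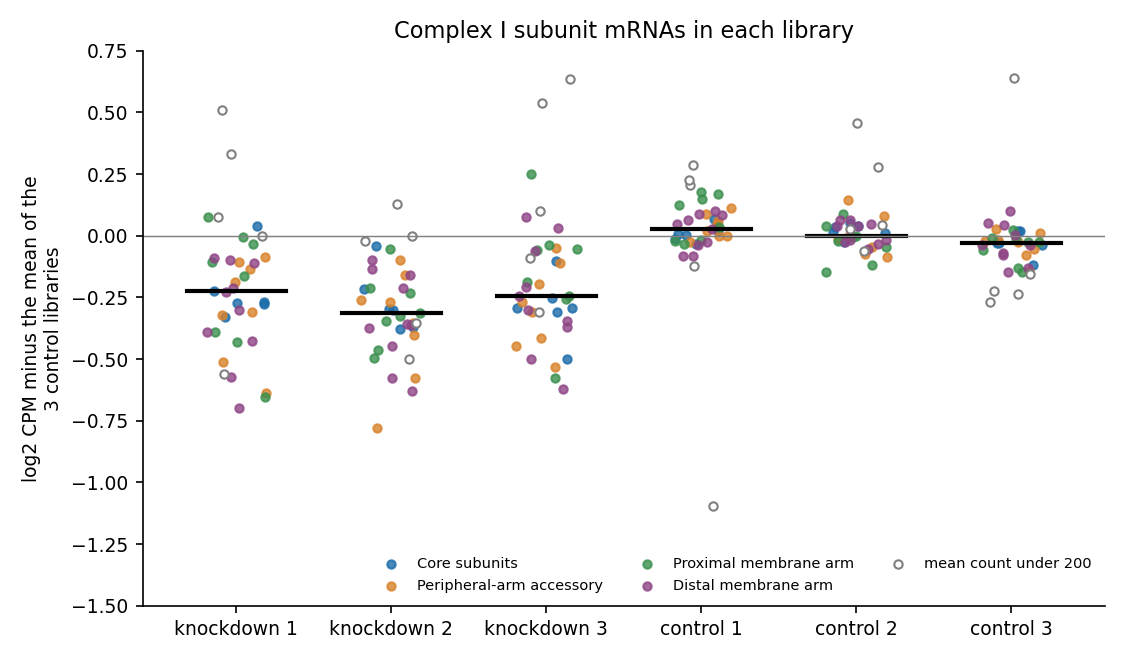
Log2 CPM of each member minus its mean in the 3 control libraries (vertical axis) for the 3 knockdown and the 3 control libraries, with points coloured by structural group, open grey points for members under 200 counts, and a bar at the median. The medians are -0.22, -0.31 and -0.25 in knockdown libraries and close to 0 in control libraries.

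Levels differed widely between members, far more than between the groups. By the authors' FPKM (fragments scaled by gene length and library total), NDUFS5 was highest at 200.6 in knockdown cells and 251.9 in control cells. NDUFS6 followed at 139.8 FPKM in knockdown cells and 214.2 FPKM in control cells, and NDUFA8, NDUFB7 and NDUFA1 at 124, 107 and 86.1 FPKM in knockdown cells and 133, 136 and 94.4 FPKM in control cells. These 5 held 53.2% of the summed FPKM of the members in knockdown cells and 54.9% in control cells. The median member had 12.3 FPKM in knockdown cells and 13.2 FPKM in control cells, and NDUFV2 was lowest at 0.492 FPKM in knockdown cells and 0.372 FPKM in control cells.

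The deposited FPKM divide by 1 length per gene, which for these members is 0.55 to 23.3 times the length of the main mRNA in GENCODE 29. That length was within 2% of the joined exons of the gene in GENCODE 29 for 21 of the 37 members and differed more for the others. A member whose FPKM length is long beside its mRNA is listed low. Dividing CPM by the main mRNA length instead put NDUFS6 first (223 CPM per kilobase in knockdown cells and 350 in control cells), then NDUFS5, NDUFS8, NDUFB9 and NDUFB7. For NDUFB9, far down the FPKM order, the length behind the FPKM was 16594 bp, beside 4106 bp for its joined exons and 711 bp for its main mRNA in GENCODE 29. Each subunit is known to be present once in the complex, apart from NDUFAB1, while the values were unequal on either scale. The lowest values may not reflect the mRNA present. For NDUFV2, NDUFA7 and NDUFA13, another gene shares 74.0%, 76.8% and 53.1% of the 50-base stretches of the main mRNA. The part of this in their low values was not tested.

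**Figure D3:**
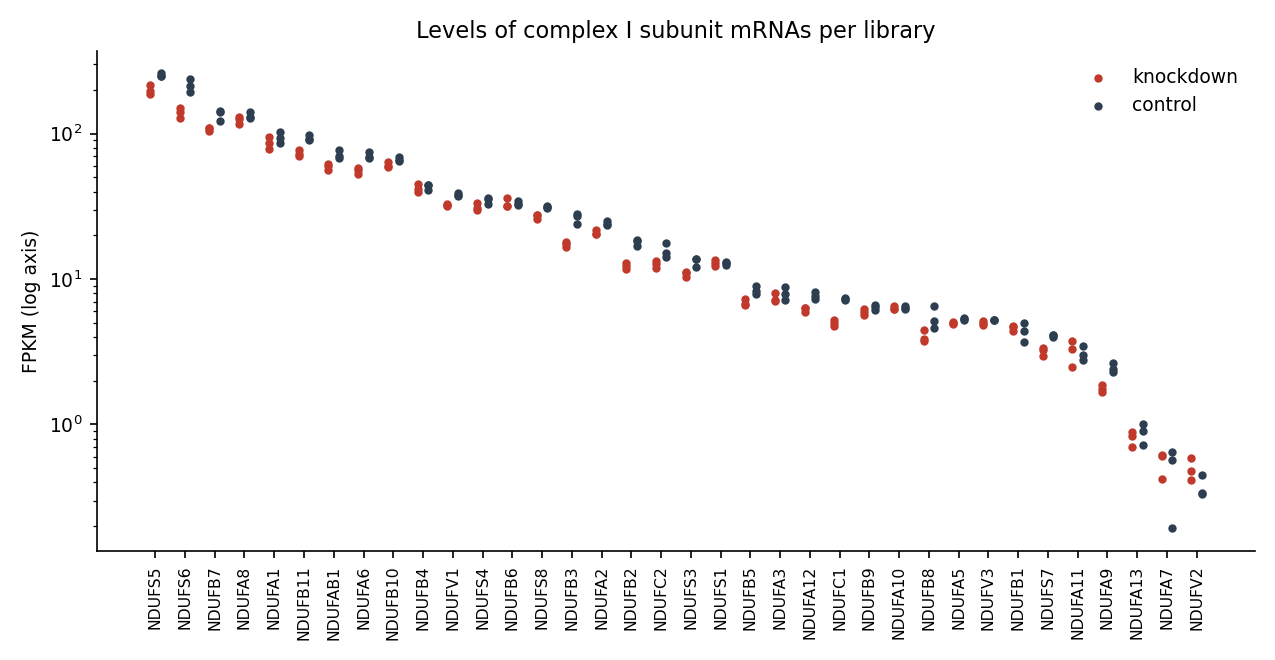
FPKM of the members in each library on a log axis, ordered by the mean of the control libraries, with knockdown points left of control points. Levels run from under 1 FPKM for NDUFV2, NDUFA7 and NDUFA13 to over 200 FPKM for NDUFS5, a far wider range than the gap between knockdown and control. Much of the main mRNA of NDUFV2, NDUFA7 and NDUFA13 is shared with another gene, and the part of this in their low values was not tested.

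The strand setting of the counting was not given in the sources used here. Members whose sequence another gene shares are less certain. In GENCODE 29, at least 50% of the 50-base stretches of the main mRNA were shared with another gene for 5 members. They were NDUFB2 (80%, mostly with BRAF, which lies on the opposite strand), NDUFA7 (76.8%), NDUFV2 (74.0%), NDUFB8 (72.7%) and NDUFA13 (53.1%). NDUFA7, NDUFV2 and NDUFA13 were also the members with the fewest counts, and the part of the sharing in that was not tested. Of the 16 members that shared none, 13 fell and 3 did not pass, with a median log2 fold change of -0.30. NDUFS6 and NDUFC1 are among these 16, and NDUFB3 shared 6.4%. These stretches cover the main mRNA alone, so the 16 are not free of overlap over the whole gene. Genes on either strand overlapped 18.5% of the joined exons of NDUFC1, 22.4% of NDUFS3, 11.7% of NDUFS1 and 19.8% of NDUFB3. For NDUFS7, NDUFB11 and NDUFA1 the overlap was 49.1%, 44.9% and 44.5%, all with the opposite strand. NDUFS6 had no such overlap.

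By the lengths behind the FPKM, 25 of the 37 members were shorter than the median gene tested. The median of these lengths was 2475 bp over the 37 members, beside 4793 bp for all genes tested. The median log2 fold change of all genes was below 0 in every length class tried except the longest. With a smooth trend on length removed, 25 members were lower and the median member was at -0.24. NDUFA1, NDUFA8 and NDUFS4 no longer passed in that fit, while NDUFS1 and NDUFA10 passed as lower. The trend used the lengths behind the FPKM, which were 3.62 times the main mRNA for NDUFS1 and 14.75 times for NDUFA10. The part of this in their calls was not tested.

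Promoters were read to see what sequence the members share beside their direction. RefSeq promoter sequences on GRCh38.p14, each 250 bases before to 50 after the annotated start, were matched for 32 of the 37. Exact matches were sought on both strands. The NRF1 half-site GCATGCGC, which overlaps its own reverse complement, was found in 6 of the 32 (18.8%), beside 3.68% of 27305 promoters. The YY1 motif AAGATGGC was found in 7 (21.9%, beside 3.52%). The SP1 GC box GGGCGG was found in 21 (65.6%, beside 48.3%), the ETS core CCGGAAG in 5 (15.6%, beside 12.2%), the CCAAT box CCAAT in 8 (25%, beside 39.7%) and the TATA box TATAAA in 3 (9.38%, beside 14.0%). No test was run on these shares.

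Of the matched members that fell, 5 of 21 held the NRF1 half-site, 5 of 21 the YY1 motif and 15 of 21 the GC box. Of the matched members that did not pass, 1 of 11 held the NRF1 half-site, 2 of 11 the YY1 motif and 6 of 11 the GC box. The promoters of 3 members with large decreases are shown first, and then those of 2 well-counted members that did not pass, so that both kinds can be read side by side. They were picked after the values were seen. The 2 were not outside the threshold in every fit, since NDUFB4 was called lower without knockdown replicate 3 or control replicate 1 (adjusted p = 0.0348 and 0.0459), and NDUFA10 with the length trend removed (adjusted p = 0.00533). Capitals mark matches to the NRF1 half-site or the SP1 GC box on either strand, and none of the other motifs was found in these windows.
NDUFS6, chr5:1801157-1801456, plus strand: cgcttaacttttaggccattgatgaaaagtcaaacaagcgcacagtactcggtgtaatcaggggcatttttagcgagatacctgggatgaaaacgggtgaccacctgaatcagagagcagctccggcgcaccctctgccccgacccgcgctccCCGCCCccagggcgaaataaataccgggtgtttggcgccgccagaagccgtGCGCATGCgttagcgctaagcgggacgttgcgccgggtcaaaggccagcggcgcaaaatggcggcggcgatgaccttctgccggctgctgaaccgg
NDUFB3, chr2:201071751-201072050, plus strand: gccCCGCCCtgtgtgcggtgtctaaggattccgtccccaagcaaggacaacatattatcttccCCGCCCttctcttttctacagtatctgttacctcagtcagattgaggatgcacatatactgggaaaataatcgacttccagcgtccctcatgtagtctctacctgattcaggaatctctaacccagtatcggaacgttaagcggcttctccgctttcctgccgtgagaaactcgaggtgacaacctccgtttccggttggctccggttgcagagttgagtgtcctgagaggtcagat
NDUFB2, chr7:140696458-140696757, plus strand: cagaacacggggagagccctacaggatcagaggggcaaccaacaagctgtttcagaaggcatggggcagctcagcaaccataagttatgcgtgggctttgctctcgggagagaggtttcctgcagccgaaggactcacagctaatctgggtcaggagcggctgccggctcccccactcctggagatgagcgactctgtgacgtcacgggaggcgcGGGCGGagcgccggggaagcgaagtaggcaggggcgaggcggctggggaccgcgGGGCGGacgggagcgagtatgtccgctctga
NDUFA10, chr2:240025293-240025592, minus strand: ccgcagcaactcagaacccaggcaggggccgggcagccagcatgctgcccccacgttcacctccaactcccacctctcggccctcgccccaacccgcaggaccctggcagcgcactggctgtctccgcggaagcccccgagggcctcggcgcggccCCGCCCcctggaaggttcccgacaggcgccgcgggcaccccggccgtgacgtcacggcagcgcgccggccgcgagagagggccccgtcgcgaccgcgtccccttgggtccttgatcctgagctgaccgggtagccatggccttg
NDUFB4, chr3:120596086-120596385, plus strand: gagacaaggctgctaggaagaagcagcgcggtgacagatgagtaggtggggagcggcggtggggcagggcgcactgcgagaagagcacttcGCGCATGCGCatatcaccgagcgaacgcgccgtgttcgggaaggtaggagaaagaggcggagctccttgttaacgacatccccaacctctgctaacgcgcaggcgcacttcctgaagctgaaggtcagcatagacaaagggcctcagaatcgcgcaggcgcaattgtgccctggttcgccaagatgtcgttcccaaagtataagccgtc
With the annotated start counted as 1 and no position 0, NDUFS6 had an NRF1 half-site at -46 and a GC box at -97. NDUFB3 had GC boxes at -247 and -187, and NDUFB2 at -35 and 20. NDUFA10 had 1 GC box, at -94. NDUFB4 held the overlapping pair of NRF1 half-sites at -159 and -157. Among the windows shown, a GC box stood in 3 of members that fell and in 1 of a member that did not pass. The NRF1 half-site stood in 1 of each. A match is not evidence of binding, and no factor's binding was measured here.

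Known regulators of respiratory and mitochondrial genes were measured as mRNA. Of 9 regulators listed, 3 fell (33.3%, beside 27.4% of all genes tested), 0 rose and 6 did not pass. ESRRA, a nuclear receptor that acts on genes of energy metabolism, averaged 181 ± 2.65 CPM in knockdown cells and 227 ± 7.39 CPM in control cells (log2 fold change -0.33 ± 0.03 SE, edgeR adjusted p = 7.26e-16). PPRC1, a coactivator of the PGC-1 family, averaged 87.7 ± 1.78 CPM in knockdown cells and 110.0 ± 1.02 CPM in control cells (edgeR adjusted p = 2.94e-11). TFAM, which packages and transcribes mitochondrial DNA, was lower by less, with a log2 fold change of -0.14 (edgeR adjusted p = 0.000913), and did not pass in the FPKM fits (adjusted p = 0.0681 and 0.0679). NRF1 averaged 16.6 CPM in knockdown cells and 16.9 CPM in control cells and did not pass. GABPA averaged 46.2 CPM in knockdown cells and 43.7 CPM in control cells, and YY1 119.9 CPM in knockdown cells and 120.7 CPM in control cells, and neither passed, though GABPA was called higher with upper quartile scaling (adjusted p = 0.0461). The median log2 fold change of the 9 was -0.07.

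Assembly factors build the complex without staying in it. Of the 19 listed, 10 fell (52.6%), 3 rose (15.8%) and 6 did not pass (median log2 fold change -0.18). The shares over all genes tested were 27.4% lower and 26.9% higher. NDUFAF8, the partner of NDUFAF5, averaged 35.0 CPM in knockdown cells and 50.9 CPM in control cells (log2 fold change -0.54 ± 0.06 SE, edgeR adjusted p = 2.17e-11). ECSIT, a member of the assembly complex that builds the membrane arm, had a log2 fold change of -0.38 (edgeR adjusted p = 3.81e-09). TMEM70, which also serves ATP synthase assembly, and NDUFAF2, which precedes NDUFA12 on the arm, had log2 fold changes of -0.37 and -0.34. The 3 that rose, named after their values were seen, were NUBPL, which delivers iron-sulfur clusters, FOXRED1, and ACAD9, which works with ECSIT. NUBPL had 18.5, 18.98 and 17.3 CPM in knockdown cells and 12.4, 11.5 and 14.2 CPM in control cells, with no overlap (log2 fold change 0.52 ± 0.10 SE, edgeR adjusted p = 3.22e-06). FOXRED1 and ACAD9 had log2 fold changes of 0.26 and 0.20, but FOXRED1 did not pass with DESeq2 (adjusted p = 0.0718) or in the FPKM fits (0.0622 and 0.0607). Without knockdown replicate 1 the log2 fold change of FOXRED1 was 0.16 (edgeR adjusted p = 0.255), and it was also not called without control replicate 1 or 3.

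Of the 7 subunits that the mitochondrial genome encodes, 2 were called lower and 2 higher. That is 28.6% each way, near the 27.4% lower and 26.9% higher of all genes tested. MT-ND1 and MT-ND2 fell, with log2 fold changes of -0.18 and -0.12, and MT-ND4L and MT-ND4 rose, with 0.12 and 0.04. MT-ND1 had 608, 619 and 610 CPM in knockdown cells and 654, 709 and 710 CPM in control cells, with no overlap (edgeR adjusted p = 8.40e-09). MT-ND4L had 970, 1007 and 987 CPM in knockdown cells and 897, 947 and 888 CPM in control cells, also with no overlap (edgeR adjusted p = 4.90e-06). The call for MT-ND4, whose groups overlapped, was lost with DESeq2 (adjusted p = 0.0783), without the low count filter (0.0935), in both limma fits on FPKM, and without control replicate 1, control replicate 2 or knockdown replicate 3. The call for MT-ND2 was lost in both FPKM fits (adjusted p = 0.0926 and 0.0795). MT-ND3, MT-ND5 and MT-ND6 did not pass. MT-ND3 averaged 800 CPM in knockdown cells and 948 CPM in control cells with no overlap (log2 fold change -0.25, edgeR adjusted p = 0.0541). It was called lower with DESeq2 (adjusted p = 0.00458), limma voom (adjusted p = 6.2e-07), no low count filter, both FPKM fits, and without control replicate 1 or 3. For MT-ND5 the values were 1199, 1271 and 1308 CPM in knockdown cells and 1245, 959 and 928 CPM in control cells, so that control replicate 1 lay among the knockdown libraries. Without that library MT-ND5 was called higher (log2 fold change 0.41, edgeR adjusted p = 1.16e-15), and so was MT-ND6 (0.28, edgeR adjusted p = 0.000182). With all libraries, limma voom called both higher, and the FPKM fits called MT-ND5 higher. The summed level of the 7 was 12911 ± 245 FPKM in knockdown cells and 12702 ± 245 FPKM in control cells (SD, n = 3 each), a difference of 1.64%, beside -18.1% for the summed FPKM of the nuclear subunits. The difference between the nuclear and mitochondrial lists was not tested.

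**Figure D4:**
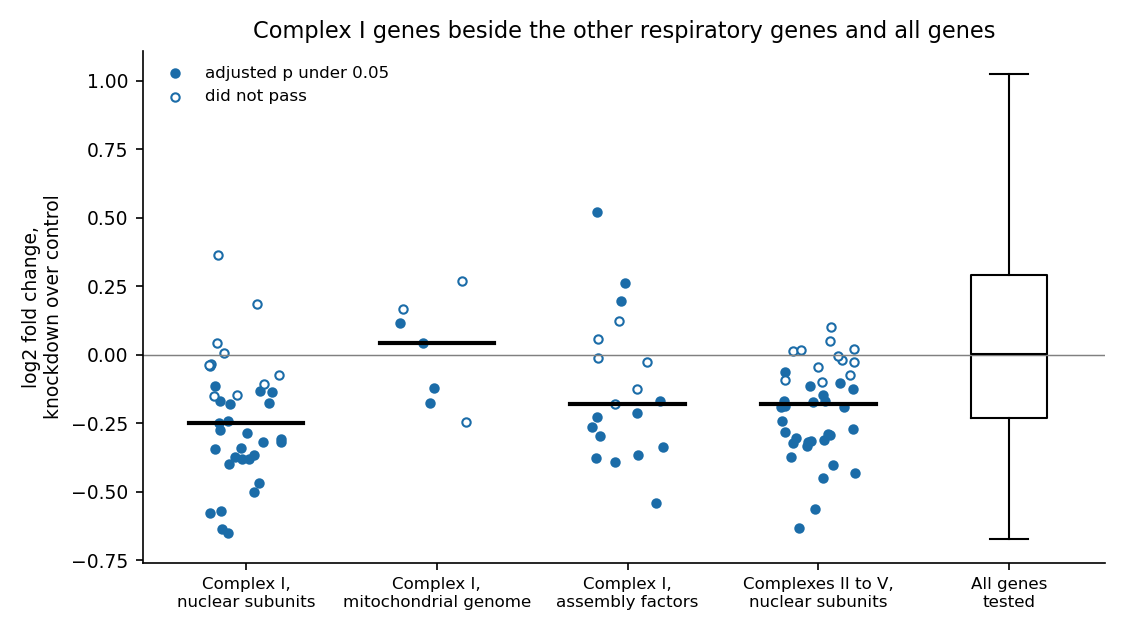
Log2 fold change, DAZAP1 knockdown over control (vertical axis), of each gene in 4 lists, with a bar at the median, and a box for all genes tested (quartiles, with whiskers at the 5th and 95th percentiles). Nuclear complex I subunits and those of complexes II to V lie mostly below 0, while the mitochondrially encoded subunits lie on both sides.

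Complex I was not set apart from the rest of the chain by its share of genes called. Of 40 nuclear subunits of complexes II to V that were measured, 28 fell (70.0%), 0 rose and 12 did not pass, beside 70.3% of the complex I members. Their median log2 fold change was -0.18. NDUFA4, the cytochrome c oxidase subunit that the rule left out, stood at 200, 192 and 200 CPM in knockdown cells, against 276, 255 and 253 CPM in control cells (log2 fold change -0.40 ± 0.03 SE, edgeR adjusted p = 2.48e-19), within the range of the complex I members that fell.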

How the data were processed

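The authors deposited raw counts per gene and FPKM for 6 Cal27 libraries. Library columns were matched to samples by name prefix and number. GRCh38.p13 and Bowtie are named, per the submitters' processing notes, without role or version. Counter, annotation and strandedness were not given in the sources used here. The deposited FPKM values are those counts divided by library total and 1 length per gene, at the median equal to the joined exons in GENCODE 29 but not for every member. Counts were tested with edgeR 4.0.16 in R 4.3.3 (filterByExpr with a minimum count of 10, TMM factors of 0.987 to 1.013, robust quasi-likelihood fit, group only), with Benjamini-Hochberg adjustment over all 15374 genes and a threshold of 0.05. SEs are derived from the F statistic. DESeq2 1.42.0 and limma 3.58.1 were alternatives, and the fit was tested on simulated data. Replicate numbers shared by the groups did not pair the libraries. The members and lists were chosen with earlier results of these data known. Per-library values are given for the 3 members with the smallest p in each structural group and for NDUFS6. Among members that did not pass, they are given for NDUFS1, NDUFV2, NDUFV3 and NDUFA10. From the other lists, up to 4 genes with the smallest adjusted p are named, some with means or fold changes only. NUBPL and MT-ND5 have per-library values though they are not among those 4. Other genes were named after their values were seen. The values of 1 member are not reported here.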

Additional observations from a re-analysis of the deposited data

How the results depend on the processing

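Over 17 alternative fits the number of members called lower ran from 21 (upper quartile scaling) to 27 (without control replicate 3), and 0 were called higher in any of them. It was 24 with DESeq2, 26 with limma voom, 24 with library size scaling and 22 with limma on log2(FPKM + 1) or log2(FPKM + 0.1). Without 1 library at a time it was 23 to 27, and the median log2 fold change was -0.27 to -0.24, with 3911 to 4104 of all genes lower and 3721 to 3905 higher. Assembly factors lower then numbered 9 to 11, mitochondrially encoded subunits lower 2 to 3, and DAZAP1 stayed at -1.91 to -1.81. With upper quartile scaling the median member was at -0.20, while the median of all genes stood at 0.0511. Of the 26 members that fell, 20 kept their call in every fit, and NDUFA1, NDUFA5, NDUFA8, NDUFB9, NDUFS4 and NDUFS6 lost it in at least 1. Of the 11 that did not pass, NDUFB4, NDUFA3, NDUFS1 and NDUFA10 were called lower in at least 1 fit. All genes numbered 3584 lower and 4800 higher with upper quartile scaling, and 3756 lower and 4599 higher with library size scaling. Assembly factors lower numbered 7 in both FPKM fits. The cause was not tested.

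No called member changed sign. Among members and regulators that did not pass, NDUFS1 stood at 0.0159 with upper quartile scaling, 0.003031 with library size scaling, and 0.001048 and 0.001061 in the FPKM fits. NRF1 stood at 0.0233, 0.0104, 0.007751 and 0.009412 in the same 4 fits. NDUFA10 stood at 0.0111 and NDUFB6 at 0.009717 with upper quartile scaling, and NDUFB6 at 0.006095 with the length trend removed. NDUFA11 stood at -0.007675 with limma voom. Without 1 library at a time, NDUFA11 ran from -0.12 to 0.16, NDUFA7 from -0.18 to 0.48, NDUFB1 from -0.0707 to 0.15 and NRF1 from -0.0561 to 0.003761.

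Same-numbered libraries of the 2 groups did not deviate together (correlations of 0.00282, -0.000783 and -0.00632). With the replicate number as a block, 25 members were lower and the median log2 fold change was -0.25.

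Low counts limit NDUFV2, NDUFA7 and NDUFA13 most, with means of 20.8, 12.7 and 41.0 counts a library. Another gene shares 74.0%, 76.8% and 53.1% of the 50-base stretches of their main mRNAs. The part of this in their low counts was not tested. No group had enough libraries for an outlier check.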
